A study of Mus musculus with 8 samples.

Results

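The genes described here are 10 members of the Nodal and Smad signalling pathway: the ligand gene Nodal, the antagonist genes Lefty1 and Lefty2, and the 7 genes Smad1 to Smad7. They were taken by name, not by any measured value, from 26212 genes with an annotated start in the mouse genome (build mm9). The measurement was trimethylation of histone H3 at lysine 4 (H3K4me3), a mark found at the starts of active and of poised genes. It was read by ChIP-Seq, in which DNA bound to the marked histone is pulled down with an antibody and sequenced as short tags.

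Nodal is a secreted ligand of the TGF-beta family. It binds a complex of type I and type II receptors with a coreceptor, and the type I receptor phosphorylates Smad2 and Smad3. Bone morphogenetic proteins (BMPs) act through other receptors that phosphorylate Smad1, Smad5 and Smad9, the last not among the genes described here. Both kinds of receptor-regulated Smad join Smad4, the common partner, and the complex enters the nucleus to regulate target genes. Lefty1 and Lefty2 are secreted inhibitors of Nodal and are themselves Nodal targets, while Smad6 and Smad7 are inhibitory Smads that the pathway induces and that dampen it. In embryonic stem cells Nodal, Lefty1 and Lefty2 are well known as active genes, and the pathway is later used to form endoderm, the layer that gives rise to the pancreas.

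The study asked how H3K4me3 depends on menin, the product of Men1 and a subunit of methyltransferase complexes that lay down this mark. Mouse embryonic stem cells (mESCs) were either wild-type (wt, line TC-1) or menin-null (Men1-ko, line 3.2N), both on the 129S6/SvEvTac background, and were grown with leukemia inhibitory factor on irradiated fibroblast feeders that were removed before use. Each line was also differentiated in culture into pancreatic islet-like endocrine cells (PILECs). Each of these 4 kinds of cells gave 1 H3K4me3 library and 1 input library, made from sonicated DNA without the antibody. Each genotype was 1 cell line, so the effect of genotype and a difference between lines cannot be told apart, and with 1 library per condition no difference between conditions has a replicate check.

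For mESCs the H3K4me3 libraries held 2432377 tags (wt) and 3517028 tags (menin-null), and for PILECs 18773635 and 17682677. The inputs held 4248298, 3744616, 19016697 and 18120807 tags, in the same order. In Men1, the stretch of chromosome 19 from 6336725 to 6338961 held 17 input tags in wt mESCs and 22 in wt PILECs. It held 0 in both menin-null inputs, where a count of 0 allows up to 3 tags, and the rest of Men1 held 16 and 31. Of 8 marker genes of pluripotent cells, 7 and 8 were marked in wt and menin-null mESCs and 3 in each kind of PILEC, where Pou5f1, Nanog, Zfp42, Esrrb and Dppa5a were not. Of 10 islet markers, 5 and 4 were marked in wt and menin-null PILECs, as many as in mESCs (5 and 4), with summed levels of 50.9 and 54.2 RPM against 64.96 and 69.1 RPM in mESCs. Ins1, Ins2, Gcg, Iapp and Pdx1 were unmarked in both kinds of PILEC. Of 8 fibroblast markers 6 were marked in each kind of PILEC and 4 in each kind of mESC, with summed levels of 86.5 to 99.1 RPM in PILECs and 85.9 to 92.4 RPM in mESCs. The 4 neural markers with an annotated start, of 6 listed, were all marked in both kinds of PILEC, with summed levels of 109 and 99.7 RPM against 47.7 and 70.5 RPM in mESCs. Of 4 endoderm markers 3 were marked in each kind of PILEC, 4 in wt and 2 in menin-null mESCs. The part of these other cells in the values below was not tested, and in a population of mixed cells fewer marked cells and less of the mark per cell cannot be told apart.

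For each gene, tags whose fragment centre lay within 1 kb of the start were counted and divided by the size of the library, as tags per 1000000 (RPM). All windows had the same length, so levels could be compared between genes. A gene was called marked where its H3K4me3 level, with 0.5 RPM added, was at least 4 times that of the input of the same cells, with 0.5 RPM added. Intervals given below are 95% intervals for counting error only. By this rule 9 of the 10 genes were marked in wt mESCs, against 49.7% of all annotated genes. All 10 were marked in menin-null mESCs, against 51.2%, and 8 in each kind of PILEC, against 51.6% in wt and 50.8% in menin-null. Thus 8 of the 10 genes carried the mark in all 4 kinds of cells, as did 45.7% of all genes. The exceptions were Lefty2, marked in both kinds of mESC and in neither kind of PILEC, and Lefty1, marked in menin-null mESCs.

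**Figure D1:**
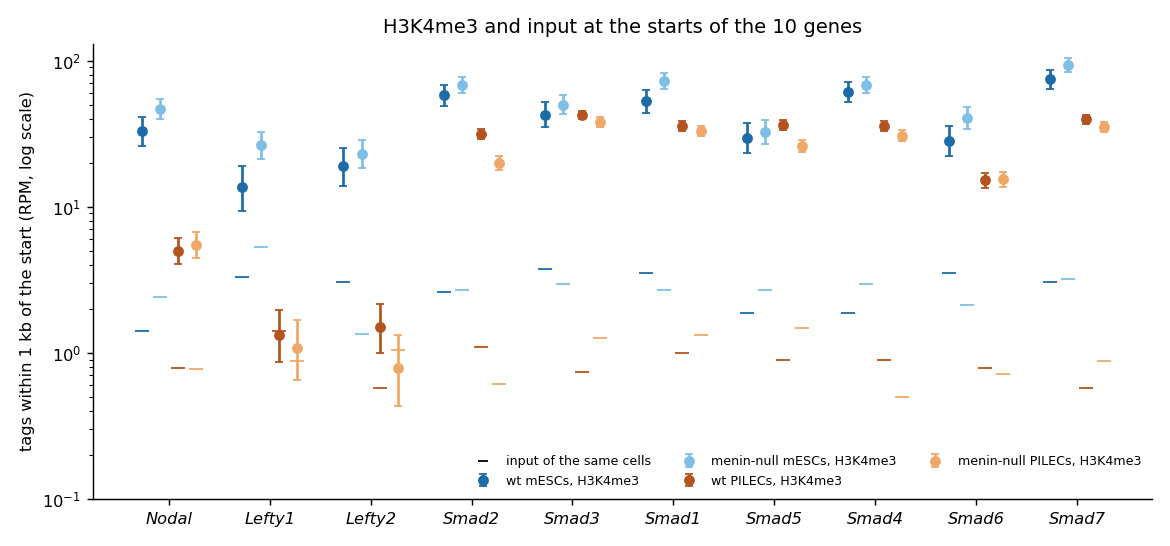
H3K4me3 level (RPM within 1 kb of the start, log axis) of the 10 genes in the 4 H3K4me3 libraries (points). Bars are 95% binomial (Clopper-Pearson) intervals, and dashes are the inputs of the same cells. Nodal, Lefty1 and Lefty2 stood between 13.6 and 46.6 RPM in mESCs and between 0.792 and 5.49 RPM in PILECs, whereas each of the 7 Smad genes stayed at 15.2 RPM or more in every library.

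Nodal, on chromosome 10 from 60880720 to 60888086 on the plus strand, has 1 annotated start. Its H3K4me3 level was 32.9 RPM in wt mESCs (80 tags), 46.6 in menin-null mESCs (164 tags), 5.01 in wt PILECs (94 tags) and 5.49 in menin-null PILECs (97 tags). Nodal was thus high in both kinds of mESC and low in both kinds of PILEC. In PILECs it was 4.27 and 4.70 times the input, just inside the limit of 4, and in mESCs 17.5 and 16.2 times. The mark at Nodal lay almost wholly downstream of the start: 86.5% to 91.9% of the tags within 2 kb were on the gene's side. The 200-bp bin with the most tags was the same in all 4 libraries, centred 500 bp downstream, with 12.3, 15.4, 2.08 and 2.60 RPM. The mark in PILECs was therefore a lower signal at the same place as in mESCs. With all libraries thinned to the same depth, the marked domain of Nodal spanned 2200 bp (wt) and 2000 bp (menin-null) in mESCs, and 200 bp and 0 bp in PILECs. The median gene marked in all 4 kinds of cells had a domain of 1400 bp in each library.

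Lefty1 lies on chromosome 1 from 182865153 to 182868531, and Lefty2 from 182823239 to 182829234, both on the plus strand. The starts used for them are 40564 bp apart. Lefty1 had 13.6 RPM in wt mESCs (33 tags), 26.4 in menin-null mESCs (93 tags), 1.33 in wt PILECs (25 tags) and 1.07 in menin-null PILECs (19 tags). In wt mESCs its input was 3.30 RPM, and Lefty1 was 3.71 times the input there and narrowly missed the limit for a mark. In menin-null mESCs its input was 5.34 RPM, and Lefty1 was 4.61 times the input, just inside the limit. In PILECs Lefty1 was at the level of the input, with 0.954 times its level in wt and 1.14 times in menin-null cells. Lefty2 had 18.9 RPM in wt mESCs (46 tags), 23.0 in menin-null mESCs (81 tags), 1.49 in wt PILECs (28 tags) and 0.792 in menin-null PILECs (14 tags). Its ratio to the input was 5.45, 12.8, 1.85 and 0.834, in the same order. The start of Lefty2 with the most H3K4me3 was not its 5′ end but the start of a transcript with a retained intron, 1350 bp downstream. No marked domain was found at Lefty1 or Lefty2 in either kind of PILEC, and in mESCs the domains spanned 1400 and 3200 bp at Lefty1 and 1000 and 2000 bp at Lefty2, in wt and menin-null cells. The Lefty genes are close relatives, yet 36-base words of the Lefty1 window were nearly all unique on chromosome 1. Of these, 0.814% occurred there more than 1 time, against 14.8% in the Lefty2 window and 0% around the 5′ start of Lefty2. Whether the repeated words are shared by the Lefty genes was not read, and other chromosomes were not searched.

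The sequence under the mark at Nodal and the Lefty genes was compared because CpG dinucleotides are known to go with H3K4me3. Each stretch below is the 200-bp bin with the most H3K4me3 in mESCs, on the plus strand of mm9, with each CG in capitals. That of Nodal (chr10:60881120-60881319) has 124 coding bases and then 76 bases of the intron that follows, and holds 19 CG. That of Lefty1 (chr1:182865353-182865552) has 138 coding bases and then 62 bases of intron, and holds 7 CG. That of Lefty2 (chr1:182824389-182824588) has 124 coding bases and then 76 bases of intron, and holds 12 CG.
Nodal: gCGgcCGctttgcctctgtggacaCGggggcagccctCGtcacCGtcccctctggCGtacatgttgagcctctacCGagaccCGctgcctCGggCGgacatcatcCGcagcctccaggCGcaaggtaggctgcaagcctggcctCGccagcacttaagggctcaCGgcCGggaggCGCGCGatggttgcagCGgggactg
Lefty1: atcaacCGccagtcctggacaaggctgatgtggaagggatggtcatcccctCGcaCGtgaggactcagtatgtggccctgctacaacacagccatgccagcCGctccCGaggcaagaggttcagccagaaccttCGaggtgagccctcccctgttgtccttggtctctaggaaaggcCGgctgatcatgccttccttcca
Lefty2: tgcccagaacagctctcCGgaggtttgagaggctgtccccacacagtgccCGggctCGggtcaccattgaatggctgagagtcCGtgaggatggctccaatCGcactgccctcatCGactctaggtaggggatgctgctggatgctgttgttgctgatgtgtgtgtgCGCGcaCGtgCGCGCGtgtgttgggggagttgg

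The 200 bases just upstream of the 5′ start are shown for contrast, again with CG in capitals. They hold 2 CG at Nodal (chr10:60880520-60880719), 1 at Lefty1 (chr1:182864953-182865152) and 2 at Lefty2 (chr1:182823039-182823238). Smad3, whose level was similar in all 4 libraries, holds 15 over the same distance (chr9:63605802-63606001, minus strand).
Nodal: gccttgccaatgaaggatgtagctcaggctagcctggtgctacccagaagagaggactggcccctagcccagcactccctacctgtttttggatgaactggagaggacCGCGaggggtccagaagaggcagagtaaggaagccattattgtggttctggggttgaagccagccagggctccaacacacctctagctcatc
Lefty1: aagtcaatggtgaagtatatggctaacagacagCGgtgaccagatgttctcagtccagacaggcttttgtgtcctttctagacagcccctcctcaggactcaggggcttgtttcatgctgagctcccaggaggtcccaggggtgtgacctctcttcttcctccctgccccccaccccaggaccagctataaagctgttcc
Lefty2: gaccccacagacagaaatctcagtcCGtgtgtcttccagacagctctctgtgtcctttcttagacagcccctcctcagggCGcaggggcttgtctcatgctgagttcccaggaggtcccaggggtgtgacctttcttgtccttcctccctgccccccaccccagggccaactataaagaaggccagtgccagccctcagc
Smad3: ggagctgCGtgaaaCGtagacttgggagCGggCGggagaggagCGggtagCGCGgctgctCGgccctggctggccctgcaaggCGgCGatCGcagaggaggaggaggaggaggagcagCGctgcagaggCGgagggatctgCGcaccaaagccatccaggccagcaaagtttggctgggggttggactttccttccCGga

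The 3 genes whose level fell most from mESCs to PILECs had fewer CG for their base composition than the Smad genes. Over 1 kb on either side of the start, the ratio of observed to expected CG was 0.51 at Nodal, 0.21 at Lefty1 and 0.43 at Lefty2, above 55.8%, 24.0% and 47.6% of all annotated genes, so that Lefty1 alone was low among genes in general. The 7 Smad genes had 0.74 (Smad3) to 0.98 (Smad2), above 86.0% to 99.5% of all annotated genes. The median was 0.66 in the 11970 genes marked in all 4 kinds of cells and 0.47 in the 393 genes marked in both kinds of mESC only, as a description with no test. Motifs of the pathway were looked for on both strands of the same windows. At Lefty2 and Smad7 these windows leave out the 5′ start, which lies 1350 and 1461 bp upstream of the start used. The bases upstream of those 5′ starts were not searched and do not enter the CG ratio. The Smad palindrome GTCTAGAC was found at Smad6 alone, and 1.46% of all windows held it. The FoxH1 site AATNCACA was found at Lefty1, Smad1 and Smad7, and 25.7% of all windows held it. The shorter Smad box CAGAC, which is contained in neither of the other motifs though its end can overlap that of the FoxH1 site, was found 1 to 8 times at each gene, against a median of 5 and in 98.4% of all windows.

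The Smad genes formed a second group, marked in every library. Smad2, a receptor-regulated Smad of the Nodal and activin branch, lies on chromosome 18 from 76401234 to 76465385. It had 58.0 RPM in wt mESCs (141 tags), 68.5 in menin-null mESCs (241 tags), 31.4 in wt PILECs (589 tags) and 19.9 in menin-null PILECs (352 tags). Menin-null PILECs had the lowest level of Smad2, and its interval (17.9 to 22.1 RPM) lay apart from that of wt PILECs (28.9 to 34.0 RPM). Smad3, its partner in the same branch, lies on chromosome 9 from 63494574 to 63605801 on the minus strand. Smad3 had 42.8, 50.04, 42.5 and 38.2 RPM (104, 176, 798 and 676 tags), in the same order. Its highest and lowest levels differed by the smallest fold of the 10 genes, and it had the highest level of them in both kinds of PILEC.

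Smad1 and Smad5, which belong to the BMP branch, lie on chromosome 8 (81862294 to 81923417, minus strand) and chromosome 13 (56804371 to 56843738, plus strand). Smad1 had 52.6 RPM in wt mESCs (128 tags), 72.8 in menin-null mESCs (256 tags), 35.6 in wt PILECs (668 tags) and 33.0 in menin-null PILECs (584 tags). Its mark was the most one-sided of the 10, with 93.8% to 96.2% of the tags within 2 kb downstream of the start. Smad5 had 29.6, 32.4, 36.2 and 26.1 RPM (72, 114, 680 and 461 tags), in the same order, and was the gene whose level in wt PILECs was the highest of its 4 values. The start used for Smad5 lies 658 bp downstream of its 5′ start, and that of Smad7 1461 bp, so that the bases just upstream of them lie within the gene. The place of the mark at Smad5 differed between the stages: 38.2% and 39.2% of its tags lay downstream of the start in wt and menin-null mESCs, and 64.5% and 78.3% in wt and menin-null PILECs. Its 200-bp bin with the most tags was centred 500 bp upstream in mESCs, nearer to the 5′ start, and 100 bp downstream in PILECs.

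Smad4, the common partner of both branches, lies on chromosome 18 from 73798663 to 73863434 on the minus strand. It had 61.3 RPM in wt mESCs (149 tags), 68.0 in menin-null mESCs (239 tags), 35.7 in wt PILECs (670 tags) and 30.7 in menin-null PILECs (543 tags). The inhibitory Smad6 lies on chromosome 9 (63800953 to 63869866, minus strand) and had the lowest level of the Smad genes, with 28.4, 40.7, 15.2 and 15.4 RPM (69, 143, 286 and 273 tags), except in menin-null mESCs, where Smad5 was lower. The inhibitory Smad7 lies on chromosome 18 from 75527183 to 75555589 on the plus strand. It had the highest level of the 10 genes in mESCs, with 74.4 RPM in wt (181 tags) and 93.0 in menin-null cells (327 tags), above 98.6% and 98.3% of all annotated genes. In PILECs Smad7 had 39.8 RPM (747 tags) and 35.1 RPM (621 tags). Smad7 also had the widest domain of the 10, with 7000 bp (wt) and 5800 bp (menin-null) in mESCs and 4400 bp and 4000 bp in PILECs. Another annotated gene, RP24-263P17.1, starts 1902 bp upstream of it on the opposite strand, within that domain. Widths at the other Smad genes ranged from 600 to 3400 bp. The 600 bp was that of Smad2 in menin-null PILECs, which became 2200 bp when the library was thinned with another seed.

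The order of levels was fixed only in part by the counts. In wt mESCs it ran Smad7, Smad4, Smad2, Smad1, Smad3, Nodal, Smad5, Smad6, Lefty2 and Lefty1, and for 0 of the 9 neighbouring pairs did the intervals lie apart. In menin-null mESCs they lay apart for 2 pairs, Smad7 over Smad1 and Smad4 over Smad3. In wt PILECs, where Smad3 came before Smad7 at the top, they lay apart for 3 pairs at the lower end, Smad2 over Smad6, Smad6 over Nodal and Nodal over Lefty2. In menin-null PILECs they lay apart for 4 pairs, Smad5 over Smad2, Smad2 over Smad6, Smad6 over Nodal and Nodal over Lefty1.

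None of the 10 genes differed 2-fold between menin-null and wt mESCs, the comparison that asks whether the mark depends on menin before differentiation. A gene was called here where its level, with 0.5 RPM added, differed 2-fold or more, among 15642 genes with a mean of at least 2 RPM over the 4 H3K4me3 libraries. All 10 genes passed that limit. The count was 0 of 10 higher, where 1.14% of all genes tested were called, and 0 of 10 lower, where 1.08% were. All 10 log2 ratios of menin-null over wt were above 0, from 0.13 at Smad5 to 0.96 at Lefty1, but the median of all genes tested was 0.22. Scaling by the tags near starts in place of all tags moved that median by -0.24, and Smad3, Smad4 and Smad5 then had ratios below 0 (-0.01, -0.09 and -0.11).

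Lefty1 was nearest to a call. Its levels of 13.6 and 26.4 RPM gave a log2 ratio of 0.96 (95% interval 0.38 to 1.58), higher than that of 98.6% of genes tested. The interval excludes the median of all genes. Within 500 bp of the start the log2 ratio of Lefty1 was 1.30, past 2-fold, and the bin centred 300 bp downstream had 3.70 RPM (9 tags) in wt and 9.95 RPM (35 tags) in menin-null mESCs. The input within 50 kb of Lefty1 had a log2 ratio of -0.17 (-0.37 to 0.04). In the window used for H3K4me3, however, Lefty1 input was higher in menin-null mESCs, at 5.34 RPM (20 tags) against 3.30 RPM (14 tags). The counting intervals of these input levels overlapped. Relative to that input, Lefty1 H3K4me3 stood at 4.61 times in menin-null and 3.71 times in wt mESCs. How far the input enters the Lefty1 ratio was not tested. The other ratios whose intervals excluded 0 were those of Smad6 with 0.52 (0.10 to 0.96), Nodal with 0.50 (0.11 to 0.91), Smad1 with 0.47 (0.16 to 0.79) and Smad7 with 0.32 (0.05 to 0.59). The inputs around Nodal and Smad1 also had more tags in menin-null mESCs, with log2 ratios of 0.25 (0.01 to 0.49) and 0.25 (0.01 to 0.50), and that around Lefty2 had fewer, with -0.29 (-0.50 to -0.08). Divided by the input ratio, with 0.5 RPM added, the H3K4me3 ratio was 0.25 at Nodal, 0.21 at Smad1 and 0.56 at Lefty2, so that Nodal and Smad1 came close to the median of all genes on that scale, 0.24.

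**Figure D2:**
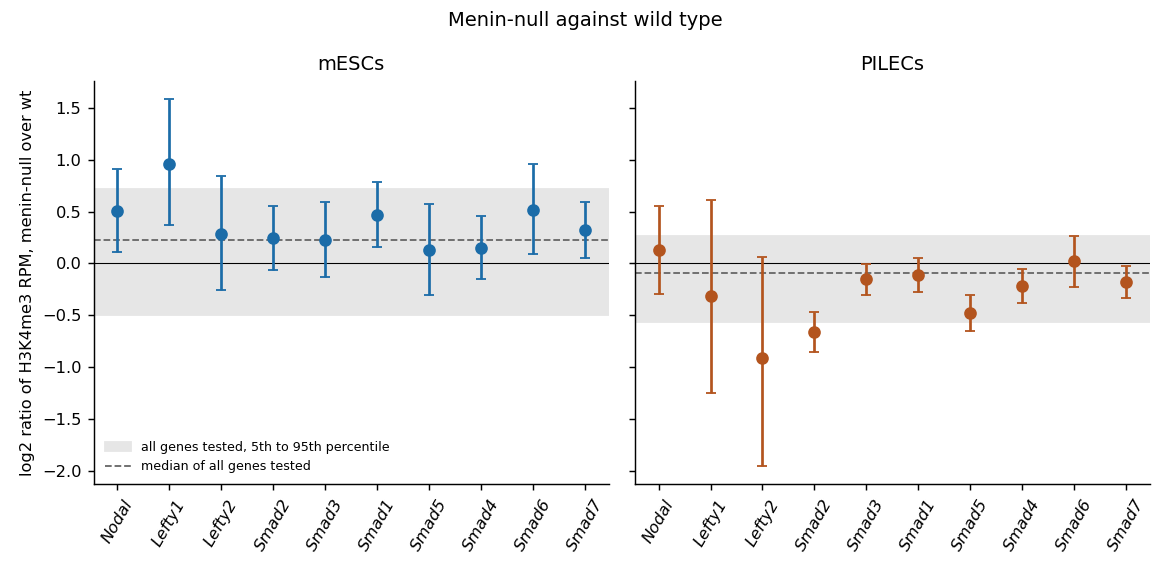
Log2 ratio of H3K4me3 RPM, menin-null over wt, for the 10 genes in mESCs (left) and PILECs (right), with 95% counting intervals, the grey band spanning the 5th to the 95th percentile of all 15642 genes tested and the dashed line their median. Lefty1 (0.96) lay above the band in mESCs, and Smad2 (-0.66) and Lefty2 (-0.91) lay below it in PILECs. The points carry no added RPM, whereas the band and the median were computed with 0.5 RPM added. On the scale of the band Lefty2 had -0.62 in PILECs, where the 5th percentile was -0.56.

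In PILECs, too, none of the 10 genes differed 2-fold between genotypes. Of all genes tested 0.121% were called higher and 0.761% lower, and 0 of the 10 genes were called in either direction. The log2 ratios ran from -0.91 at Lefty2 to 0.13 at Nodal, beside a median of -0.09 over all genes tested. Smad2 had 31.4 RPM in wt and 19.9 RPM in menin-null PILECs, a log2 ratio of -0.66 (95% interval -0.85 to -0.46) or 1.58-fold lower. This was below all but 3.41% of genes tested. Smad5 came next among the Smad genes with -0.47 (-0.65 to -0.30), below all but 8.10%. Smad4 (-0.22), Smad7 (-0.18) and Smad3 (-0.15) had smaller ratios whose intervals excluded 0 but not the median of all genes. Lefty2 had the lowest ratio of the 10, -0.91 (-1.95 to 0.06), from 28 and 14 tags at 1.85 and 0.834 times the input. With 0.5 RPM added its ratio was -0.62, and 0.22 on that scale with its 5′ start in place of the main start, so no direction was given to it. The input within 50 kb of each gene had a log2 ratio between -0.12 (Smad6) and 0.08 (Smad7) in this comparison, and each interval took in 0.

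The ratios at Smad2 and Smad4 in PILECs were lowest just downstream of the start, a stretch that was compared after the profiles had been seen. Over the whole kb on each side, Smad2 had 321 and 163 tags downstream (log2 ratio -0.89, -1.17 to -0.61) and 268 and 189 tags upstream (-0.42, -0.69 to -0.14). The downstream ratio was below all but 1.71% of genes tested, and the upstream ratio was within the range of many genes, with 23.6% below it. Without the 400 bp downstream, Smad2 had 519 and 340 tags in the window (-0.52, -0.73 to -0.32) and Smad4 582 and 520 tags (-0.08, -0.25 to 0.10). In the 400 bp downstream of the start, Smad2 had 70 tags in wt and 12 tags in menin-null PILECs, 3.73 and 0.679 RPM. Smad4 had 88 tags and 23 tags there, 4.69 and 1.30 RPM. The log2 ratios were -2.46 (-3.48 to -1.56) at Smad2 and -1.85 (-2.58 to -1.17) at Smad4, and with 0.5 RPM added both passed 2-fold. In this stretch 2.82% of all genes tested were 2-fold or more lower. In the 400 bp upstream of the start the intervals of both took in 0. Smad2 had 6.34 and 6.22 RPM there (log2 ratio -0.03, -0.41 to 0.36) and Smad4 8.42 and 9.10 RPM (0.11, -0.21 to 0.44). In mESCs the downstream stretch had no fewer tags in menin-null cells at either gene. Smad2 had 35 tags in wt and 75 in menin-null mESCs (0.57, -0.03 to 1.19), and Smad4 49 and 92 tags (0.38, -0.14 to 0.91). Other 400-bp stretches were past 2-fold higher in menin-null mESCs. Lefty1 had 14 and 52 tags downstream (1.36, 0.49 to 2.33), above 98.1% of genes tested. Smad6 had 13 and 48 tags upstream (1.35, 0.45 to 2.36), above 95.5%.

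**Figure D3:**
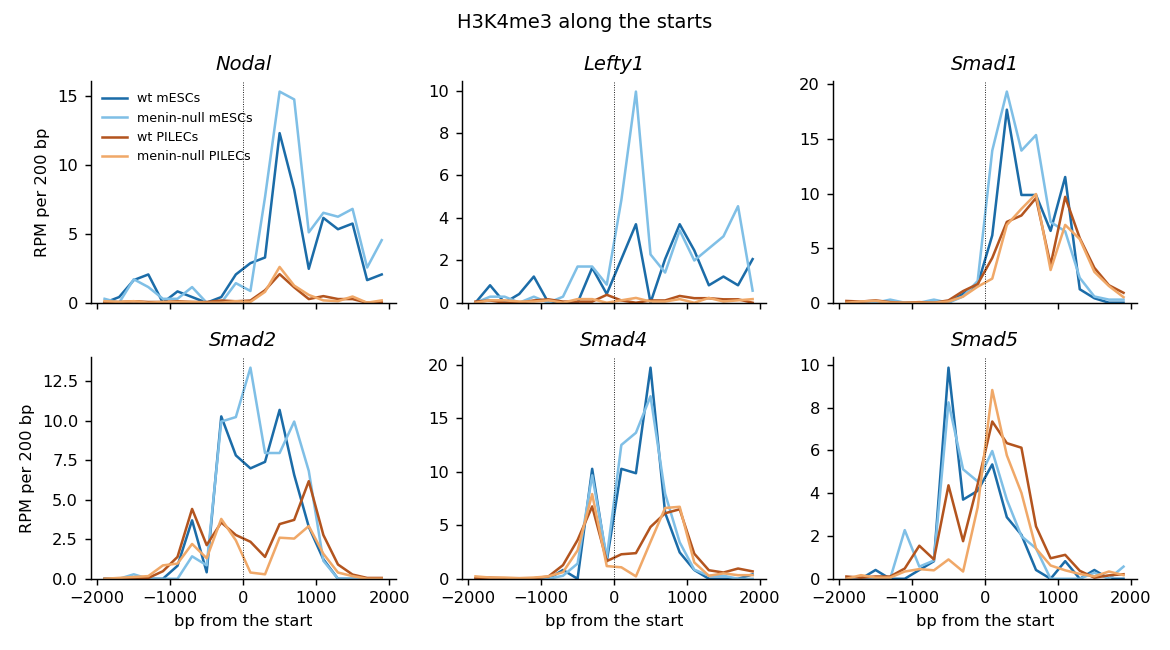
H3K4me3 (RPM per 200-bp bin) from 2 kb upstream to 2 kb downstream of the start of 6 of the genes in the 4 H3K4me3 libraries, with the start at 0. In menin-null PILECs Smad2 and Smad4 fell to 0.283 and 0.226 RPM in the bin centred at 300 bp, and Smad5 had 0.905 RPM at -500 bp where wt PILECs had 4.37 RPM.

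These stretches were unusually rich in G and C. Of the 400 bp downstream, 83.5% were G or C at Smad2 and 82% at Smad4, the highest of the 10 genes, and the others had 58.5% (Smad5) to 76.2% (Smad1). Other genes of such composition were lower too. Among the 223 genes tested with 80% or more, the median log2 ratio of menin-null over wt PILECs was -1.18, and 60.1% were 2-fold or more lower. Among the 3299 genes with 60 to 65%, the median was 0.02 and 0.94% were 2-fold or more lower. On this scale, with 0.5 RPM added, Smad2 had -1.84 and Smad4 -1.53, which placed them above 10.3% and 26.9% of the 223 genes. The mean H3K4me3 level of those 223 genes was 16.5 RPM (wt) and 22.3 RPM (menin-null) in mESCs, and 6.38 RPM and 2.81 RPM in PILECs. The inputs moved with composition as well. Between genes of 55 to 60% and genes of 80% or more, mean input went from 0.562 to 0.830 RPM in wt mESCs and from 0.511 to 0.630 RPM in menin-null mESCs. In wt PILECs it went from 0.225 to 0.0653 RPM and in menin-null PILECs from 0.230 to 0.0621 RPM. In the 400 bp upstream of the start, Smad2 holds 76.5% G or C and had -0.03 with 0.5 RPM added. It stood there above 86.4% of 763 genes of 75 to 80%, whose median was -0.48. Smad4 holds 66.5% upstream and had 0.11, above 76.4% of 2344 genes of 65 to 70%. The part of base composition in the Smad2 and Smad4 ratios was not tested. Over the whole window of 1 kb on either side Smad2 has 67.3% G or C. Its log2 ratio there was -0.64 with 0.5 RPM added, against a median of -0.11 in 632 genes of 65 to 70%, and it was above 3.48% of them. Those 632 genes were matched on the whole window and not on the 400 bp downstream, so this rank does not account for the composition of that stretch.

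**Figure D4:**
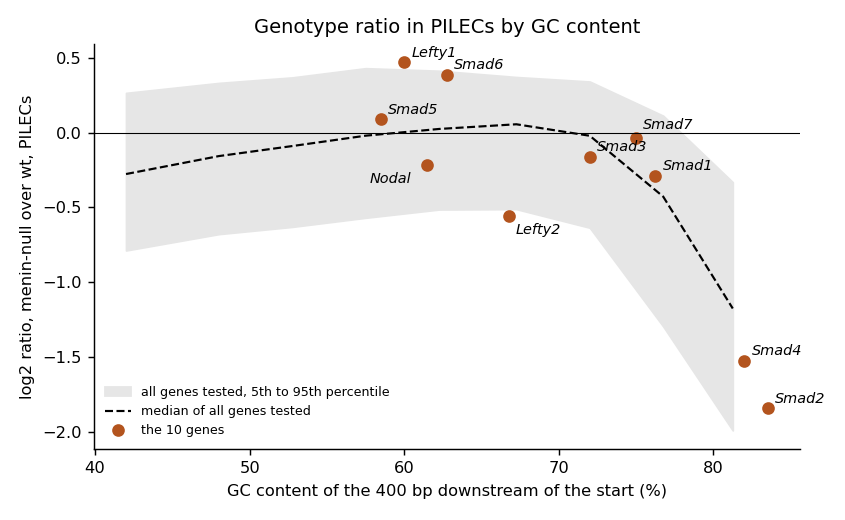
Log2 ratio of menin-null over wt PILECs (0.5 RPM added) in the 400 bp downstream of the start against the percentage of G and C in that stretch, for the 10 genes (points) and, in bins of G and C content, the median (dashed line) and the 5th to 95th percentiles (grey) of all genes tested. Both rich in G and C, Smad2 and Smad4 lay at -1.84 and -1.53, where the median of the bin was -1.18.

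At Smad5 and Smad7 the lower ratios in PILECs lay upstream of the start used, between it and the 5′ start or beyond. In the kb upstream Smad5 had 244 tags in wt and 96 in menin-null PILECs, a log2 ratio of -1.26 (-1.62 to -0.91), below all but 0.543% of genes tested. In the kb downstream it had 436 and 365 tags, a ratio of -0.17 (-0.37 to 0.03). The bin with the largest difference, centred 500 bp upstream, had 82 tags in wt and 16 in menin-null PILECs. In mESCs the kb upstream had 46 and 68 tags, a ratio of 0.03 (-0.53 to 0.60). The 400 bp upstream of Smad5 hold 74.2% G and C, and Smad5 was there at -0.68 with 0.5 RPM added, above 9.39% of 1491 genes of 70 to 75%. Smad7 was similar there, with 193 tags in wt and 110 in menin-null PILECs, a log2 ratio of -0.72 (-1.08 to -0.38), and 74.8% G and C. Smad5 and Smad7 lie near the upper edge of that range, whose median was -0.14. Among 763 genes of 75 to 80% the median was -0.48, and 13.6% were 2-fold or more lower. The bin centred 500 bp upstream of Smad5 lies outside these 400 bp, and its base composition was not compared. Over the whole kb upstream Smad7 had 353 and 249 tags, a ratio of -0.42 (-0.66 to -0.18), within the range of many genes, with 23.3% below it.

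The genotype ratios of Nodal and the 7 Smad genes were lower in PILECs than in mESCs, as they were for the median gene tested. The difference, PILECs minus mESCs, had a median of -0.32 over all genes tested. Smad2 had -0.90 (95% interval -1.25 to -0.54), and this was the only interval of the 10 that excluded that median. Without the 400 bp downstream of its start, its ratios were 0.12 in mESCs and -0.52 in PILECs. Their difference was not computed, so whether its interval would exclude the median was not tested. Over the whole window Lefty1 had -1.27 (-2.31 to -0.24) and Lefty2 -1.20 (-2.26 to -0.14). The Lefty ratios in PILECs came from 14 to 28 tags. They turned to 0.47 at Lefty1 with the input subtracted and to 0.22 at Lefty2 with the 5′ start, so the Lefty genes were not ranked.

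Between mESCs and PILECs the H3K4me3 levels of the ligand and its antagonists fell most of the 10 genes in both genotypes. The 7 Smad genes remained marked at lower or similar levels. Lefty1 was not marked in wt mESCs by the rule used. In wt cells 3 of the 10 genes fell 2-fold or more, namely Nodal, Lefty1 and Lefty2, where 14.0% of all genes tested were called lower. None of the 10 was called higher, where 6.95% were. Nodal fell 6.57-fold, a log2 ratio of -2.72 (95% interval -3.16 to -2.27), Lefty1 fell 10.2-fold (-3.35, -4.16 to -2.56) and Lefty2 fell 12.7-fold (-3.66, -4.40 to -2.96). In wt PILECs the Lefty genes were at 0.954 and 1.85 times the input, so these folds are limited by the background. With 0.5 RPM added, the log2 ratios in wt cells were -2.94 at Lefty1 and -3.29 at Lefty2. On that scale the ratio of Lefty1 divided by the input ratio within 50 kb was -1.90. With the 5′ start that of Lefty2 was -2.17 in wt and -2.15 in menin-null cells. The 7 Smad genes had log2 ratios from -0.90 (Smad7) to 0.29 (Smad5). Smad3 had -0.01 (-0.30 to 0.30), so that its 42.8 and 42.5 RPM were not separable. Smad7, Smad6 (-0.90), Smad2 (-0.89) and Smad4 (-0.78) were 1.72-fold to 1.87-fold lower in PILECs, short of the limit. Divided by the input ratio within 50 kb, Smad7 had -0.03 and Smad6 -0.19. With tags within 500 bp in place of 1 kb, 7 of the 10 genes were 2-fold or more lower, where 15.2% of all genes tested were. With its 5′ start the ratio of Smad5 was -0.08.

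In menin-null cells 8 of the 10 genes fell 2-fold or more, all but Smad3 and Smad5, where 22.3% of all genes tested were called lower. None was called higher, where 5.08% were. The log2 ratios were -3.09 (-3.46 to -2.72) at Nodal, -4.62 (-5.42 to -3.90) at Lefty1 and -4.86 (-5.80 to -4.03) at Lefty2. In menin-null PILECs the Lefty genes were at 1.14 and 0.834 times the input, so their ratios are limited by the background here too. With 0.5 RPM added Lefty1 had -4.10, and -3.15 when divided by the input ratio within 50 kb. Among the Smad genes Smad2 fell most, 3.44-fold (-1.78, -2.02 to -1.54). Smad7 fell 2.65-fold, Smad6 2.63-fold, Smad4 2.21-fold and Smad1 2.20-fold. The median of all genes tested was -0.34 here and -0.02 in wt cells. Scaled by the tags near starts, which moved the median by 0.35, Smad1 (-0.77) and Smad4 (-0.78) were no longer 2-fold lower, and Smad5 had 0.0442. Divided by the ratio of the input within 50 kb, 4 of the 10 genes were 2-fold lower, Smad5 had 0.0440 and Smad3 0.20.

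The stage comparison also set libraries of 2432377 and 3517028 tags against libraries of 18773635 and 17682677, and the stage cannot be told apart from that difference in depth. The inputs also differed between stages at starts rich in G and C, as given above, and the part of this in the ratios was not tested. In menin-null cells 19.5% of genes with 50 to 55% G and C within 1 kb of the start were 2-fold or more lower, and 35.3% of those with 65 to 70%. Nodal (53.8% G and C) and Lefty2 (53.7%) lay below all but 1.99% and 0.201% of 4968 genes of their composition, and Lefty1 (55.2%) below all but 0.173% of 4635 genes. Smad2 lay below all but 7.28% of 632 genes. Smad3 and Smad5 stood in the upper part of theirs, above 62.1% and 55.9%.

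**Figure D5:**
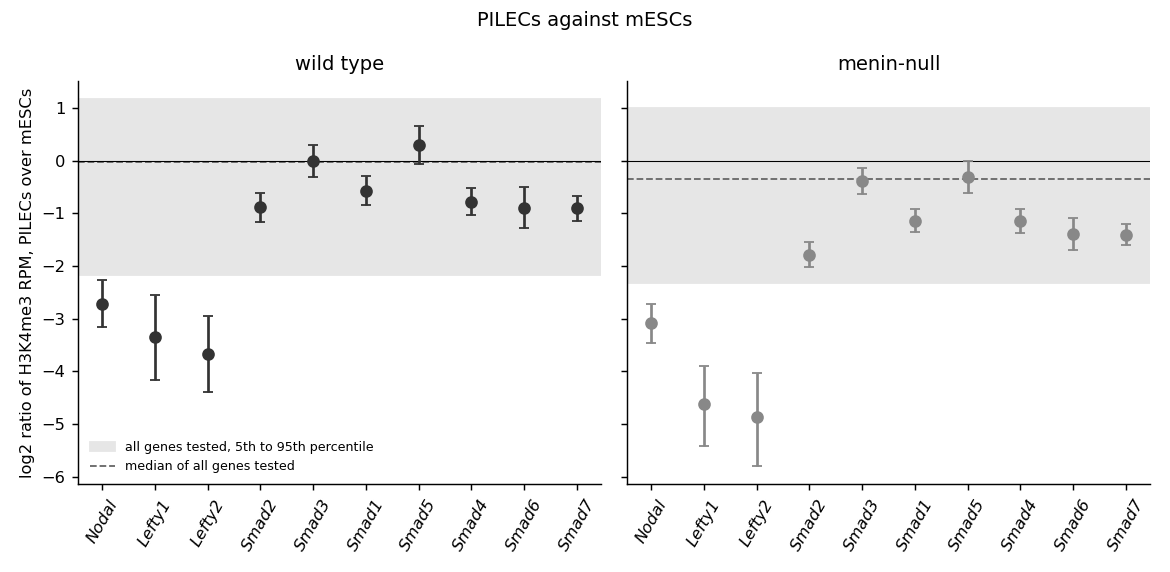
Log2 ratio of H3K4me3 RPM, PILECs over mESCs, for the 10 genes in wt (left) and menin-null cells (right), with 95% counting intervals, the grey band spanning the 5th to the 95th percentile of all genes tested and the dashed line their median. Nodal, Lefty1 and Lefty2 lay below the band in both genotypes, and the 7 Smad genes lay within it. The points carry no added RPM, whereas the band and the median were computed with 0.5 RPM added.

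The rest of the pathway was read from a list of 59 other genes, of which 55 passed the limit on level. Between genotypes few passed 2-fold, as among all genes tested, of which 1.14% were higher and 1.08% lower in mESCs. In mESCs 1 gene rose, Bmp4 (7.81 to 18.8 RPM, log2 ratio 1.26, 0.51 to 2.08), which encodes a BMP ligand. Another gene fell, Tgfb3 (11.9 to 2.27 RPM, -2.39, -3.73 to -1.23), which encodes a TGF-beta ligand, and the input within 50 kb of Tgfb3 had a log2 ratio of -0.75. In PILECs 0 of the 55 passed 2-fold in either direction, where 0.121% of all genes tested were higher and 0.761% lower. The median log2 ratio of the list was 0.22 in mESCs and -0.17 in PILECs, beside 0.22 and -0.09 over all genes tested.

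Between stages more genes of the list were lower than higher in PILECs. In wt cells 15 of the 55 genes were lower and 3 higher, where 14.0% and 6.95% of all genes tested were, and in menin-null cells 24 were lower and 1 higher, where 22.3% and 5.08% were. Divided by the input ratio within 50 kb, 14 were lower and 4 higher in wt cells (9.92% and 16.1% of all genes), and 15 were lower and 4 higher in menin-null cells (14.6% and 8.71%). Before that division, the largest falls in both genotypes were at Tdgf1, Foxh1 and Gdf3. Tdgf1 encodes the Nodal coreceptor Cripto, Foxh1 a DNA-binding partner of Smad2 and Smad3, and Gdf3 a ligand related to Nodal. In menin-null cells Bmp4 came next, with 18.8 and 0.848 RPM (-4.47), and the list was not ranked again after division. Tdgf1 had 41.5 RPM in wt mESCs and 1.49 in wt PILECs (log2 ratio -4.80, -5.46 to -4.18), and 34.7 and 1.13 RPM in menin-null cells (-4.94). Foxh1 had 28.0 and 1.17 RPM (-4.58) in wt and 30.4 and 1.30 RPM (-4.55) in menin-null cells. Gdf3 had 27.1 and 1.38 RPM (-4.29) in wt and 41.5 and 1.19 RPM (-5.13) in menin-null cells. Divided by the input ratio, with 0.5 RPM added, Tdgf1 had -3.81 and -3.78, Foxh1 -2.90 and -3.16 and Gdf3 -3.39 and -4.24, in wt and menin-null cells.

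By group the counts were as follows. Of 3 Nodal coreceptors and convertases, 2 were lower in wt and 3 in menin-null cells. Of 5 Nodal and activin ligands, 4 were lower in PILECs in each genotype, and Inhba, which encodes an activin subunit, was higher in wt cells (3.29 to 7.67 RPM, log2 ratio 1.22, 0.20 to 2.46). The 13 receptors were type I and type II receptors with the coreceptors Tgfbr3 and Eng. Of these, 2 were lower in wt and 3 in menin-null cells, close to the shares of all genes tested, with a median of 0.04 and -0.27. Eng was among those lower in both genotypes, and Tgfbr2 was higher in wt cells (9.87 to 20.5 RPM, 1.05). Of 6 extracellular antagonists, 0 and 1 were lower. Of 7 TGF-beta and BMP ligands, 2 were lower in each genotype, while Tgfb2 was higher in wt cells (13.2 to 27.0 RPM, 1.04) and Tgfb3 in menin-null cells (2.27 to 7.97 RPM, 1.81). Of 11 Smad partners and negative regulators, a group that also held Smad9, 1 was lower in wt and 6 in menin-null cells. Of 10 target genes, 4 and 5 were lower. Divided by the input ratio, where 9.92% of all genes were lower in wt and 14.6% in menin-null cells, the genes lower in wt and menin-null cells were 2 and 2 of the coreceptors and convertases, 3 and 4 of the Nodal and activin ligands, 3 and 3 of the receptors, 0 and 0 of the antagonists, 2 and 1 of the TGF-beta and BMP ligands, 1 and 2 of the partners and 3 and 3 of the targets. On the same scale, where 16.1% and 8.71% of all genes were higher, neither Inhba nor Tgfbr2 was called higher in wt cells, and 2 targets were in each genotype, with 1 partner and 1 TGF-beta or BMP ligand in wt cells and 1 antagonist and 1 TGF-beta or BMP ligand in menin-null cells.

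The genes whose 4 levels were nearest to those of Nodal were Kcna7, Arc and Dnase2a, by Euclidean distance of log2 levels with 0.5 RPM added, at 0.24, 0.24 and 0.28. For Lefty1 they were 2410019O14Rik (0.45), H2-M5 (0.48) and Gnmt (0.50), and for Lefty2 Slc7a7 (0.21), Gpx7 (0.27) and Prss41 (0.44). The likeness was measured over 4 libraries only. Kcna7 had 28.8, 42.6, 5.17 and 5.26 RPM, in the order used above, and Slc7a7 21.0, 24.2, 1.33 and 0.848 RPM.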

How the data were processed

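Aligned tags from 4 H3K4me3 and 4 input libraries were used, 1 of each for wt and menin-null mESCs and PILECs, grouped by the titles given to the samples. Per the study's methods, 36-base reads were aligned to mm9 and kept if they mapped uniquely with no more than 2 mismatches (aligner not given in the sources used here). The deposited files list tag positions and strands with an alignment score, which was not used, and 1.04% to 1.81% of tags listed more than 2 mismatches.

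Each tag was moved 125 bp, to the middle of its 250-bp fragment. Tags within 1 kb of 75434 annotated starts (GENCODE M1 on NCBIM37, the same build as mm9) were counted and divided by library totals. Each gene was represented by the start with the highest summed RPM. Ratios carry exact conditional binomial (Clopper-Pearson) intervals from the tag counts, and differences of ratios Wald intervals. Over the windows of 1 kb on either side, medians, percentiles and ranks among all genes tested were computed with 0.5 RPM added. With 1 library per condition no p-value was computed, and all intervals and floors cover counting error only, since PCR copies are not independent molecules. RPM of 1 tag was 0.0533 to 0.411 in the H3K4me3 libraries. Domains joined neighbouring 200-bp windows that each held 4 tags or more, over gaps of up to 400 bp, in libraries thinned to 2432377 tags. Functions were tested on simulated data. Python 3.11.15, numpy 2.4.6, pandas 2.3.3, scipy 1.17.1 and matplotlib 3.10.9 were used.

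The 10 genes, the list of 59 pathway genes and the marker lists were chosen with earlier results of these data known. Named beyond the 10 genes were, per comparison, the 3 pathway genes with the largest ratios up and down past 2-fold, the 3 nearest genes to Nodal and to each Lefty gene, and unmarked markers of the labelled cells. The second start of Smad7, the marked stretch beyond Lefty1, the stretch of Men1 and the fall of Bmp4 between stages were named after their values were seen. Tgfbr3, Eng and Smad9 were named to describe their groups. The comparisons of 400-bp and 1-kb stretches on each side of the start, and of G and C content, the input division for the pathway list and the window without 400 bp were chosen after the values were seen. Sequences were read from the NCBIM37 genome. Alternatives covered duplicates, scaling, windows, starts, tag shifts, added RPM, input, mismatches, minimum level and thresholds.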

Additional observations from a re-analysis of the deposited data

Results flagged for a closer look

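Over the whole window of 1 kb on either side, the H3K4me3 ratio of menin-null over wt cells at Smad2 was lower in PILECs than in mESCs. Among the 10 genes Smad2 was the only one for which the interval of that difference excluded the median of all genes tested. Menin-null against wt cells, its log2 ratio was 0.24 in mESCs and -0.66 in PILECs, a difference of -0.90 (95% interval -1.25 to -0.54, counting error only) beside a median of -0.32, and 6.67% of all genes tested lay lower. Lefty1 and Lefty2, near the input in PILECs, were not ranked against it. With 1 library per condition the difference could not be tested against replicates, and with 1 cell line per genotype genotype and line cannot be told apart. The 400 bp downstream of its start hold 83.5% G and C, and the part of base composition was not tested. Leaving those 400 bp out gave -0.52 (-0.73 to -0.32) for PILECs. For mESCs the value was then 0.12 (-0.25 to 0.48). A stage difference on that shortened window was not computed, so whether the flagged result holds there was not tested.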

How the results depend on the processing

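No paired analysis was possible because each condition had 1 library. Of 600 log2 ratios recomputed for the 10 genes under other settings, 17 changed sign. Of these, 14 were of ratios whose counting interval took in 0: 4 between genotypes in mESCs (Smad3, Smad4, Smad5), 4 between genotypes in PILECs (Nodal, Lefty1, Lefty2, Smad6) and 6 between stages in wt cells (Smad3, Smad5). The other 3 were of ratios whose interval excluded 0, from menin-null mESCs to PILECs: Smad5 became 0.0442 with scaling by tags near starts and 0.0440 when divided by the input ratio within 50 kb, and Smad3 became 0.20 with that division. Beside these 3, 48 values lay outside the counting interval of the ratio reported. Counts of the 10 genes past the limit stayed within 1.5 times in 154 of 164 cases. Between genotypes in mESCs, 1 gene was higher with tags within 500 bp, with division by the input ratio, with the input subtracted and at a limit of 1.5-fold. In PILECs 1 was lower with the input subtracted and 2 at 1.5-fold. From mESCs to PILECs, 7 were lower in wt cells with tags within 500 bp and at 1.5-fold, and 4 in menin-null cells with division by the input ratio and at 3-fold. Counts of marked genes did not move by over 1.5 times. Of 80 widths 21 moved by over 200 bp. Depth limits mESCs most: 1 tag is 0.411 RPM in wt mESCs, and 3 tags, the limit that a count of 0 allows, are 1.23 RPM there against 0.160 RPM in wt PILECs.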

Other observations

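Within Smad7, a stretch of H3K4me3 centred 5456 bp downstream of the main start was found in menin-null mESCs and in none of the other 3 libraries at equal depth, 1000 bp wide with 17 tags. The annotated start 5924 bp downstream of the main start had 42 tags there (11.9 RPM, 3.13 times the input), against 8 tags (3.29 RPM) in wt mESCs, 17 (0.906 RPM) in wt PILECs and 20 (1.13 RPM) in menin-null PILECs. It was not marked by the rule of 4 times the input in any of them. A stretch centred 7447 bp downstream of the start of Lefty1 lay at the start of Tmem63a and was found in all 4 libraries.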
